A study of Mus musculus with 16 samples.

Results

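The circadian clock genes described here are 10 transcripts, Per1, Per2, Per3, Cry1, Cry2, Arntl, Clock, Nr1d1, Nr1d2 and Dbp, taken by their symbols from the 24060 genes measured. All 10 were found in every one of 16 libraries from the somatosensory cortex of C57BL/6J mice with the genotype Aldh1l1CreERT2-RiboTag, aged 3 months. In these mice a Cre recombinase driven by Aldh1l1, an astrocyte gene, was switched on by tamoxifen and put an HA tag on ribosomes, so all groups, naïve mice included, had received tamoxifen. The labels give 2 months as the age at tamoxifen and 1 month from there to the stress, and the study's methods give a shorter interval. Ribosome-associated RNA of astrocytes was pulled down with an antibody against HA (IP), and RNA of the cleared lysate, which holds all cell types, was kept as INPUT. Stressed mice swam for 20 min and rested for 90 min in the home cage, and naïve mice stayed in the home cage. Each condition had 4 libraries per fraction, giving 4 groups (naïve IP and naïve INPUT, stress IP and stress INPUT) with libraries numbered as in the labels, from separately homogenized mice of both sexes. Neither the sex behind a library, nor which IP and INPUT shared a mouse, nor the hour at which a mouse was killed is given in the sources used here.

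The clock runs on a loop in which the proteins of Arntl (also called Bmal1) and Clock pair up and switch on the Per and Cry genes, whose proteins in turn silence that pair. A second loop links Arntl to the nuclear receptors encoded by Nr1d1 and Nr1d2 (Rev-erb alpha and beta), which repress it through RORE sites. Dbp encodes a factor that binds D-boxes and is among the most strongly cycling transcripts of many tissues. In most peripheral tissues the transcripts of Dbp, Nr1d1 and the Per genes peak at another time of day than those of Arntl and Clock, and Per1 is also induced directly by glucocorticoid hormone and by neuronal activity.

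Values are CPM, reads on a gene per 1000000 reads on all genes of a library. Between 16392876 and 25814364 reads were counted on genes per library, and every clock gene had at least 227 reads in each. The spread between libraries of a group, as a CV, was from 1.32 times (Cry1 in naïve INPUT, 7.85% against 5.94%) to 15.7 times (Dbp in naïve INPUT) the CV that counting alone gives. The summed level of 6 astrocyte markers was 77453 to 89125 CPM in IP and 4396 to 5293 CPM in INPUT, and that of 6 neuronal markers was 334 to 551 CPM in IP and 9619 to 11272 CPM in INPUT. The labelled fraction and these markers point the same way, and no listed marker of 5 cell types was at 0 in any group. In such bulk samples, fewer cells of a type and less RNA per cell cannot be told apart. One naïve library of each fraction stood apart in genes outside the clock loop as well. Fkbp5, a glucocorticoid target, reached 39.8 CPM in naïve IP replicate 11 while its 3 fellows had 5.31 to 8.55 CPM, and 49.3 CPM in naïve INPUT replicate 14 while the others of that group had 22.5 to 27.1 CPM. Stress effects within a fraction are therefore also given without the library in question where they changed sign or moved by over 1.5 times, as is the fold change of Nr1d1 in IP. Of 6 genes of the acute stress response taken as a reference, 2 passed the test in IP (Tsc22d3 and Nr4a1, both higher after stress) and 0 in INPUT.

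The known regulatory sites of the clock are short DNA motifs, and those near the start sites of these genes are printed because the library patterns described further on concern genes of these loops. RefSeq promoters on GRCm38.p6, from 250 bases before to 50 bases after a start site, were searched on both strands for the E-box CACGTG, bound by the Arntl and Clock pair, the related CACGTT, the D-box TTATGNAA, bound by Dbp, the RORE core TAGGTCA, bound by the Rev-erb receptors, and the CRE TGACGTCA. Of the 10 genes, 9 had an entry, with 13 start sites in all, and Per2 had none. Each window of 30 bases below reads 5′ to 3′ on the strand of its gene, with the motif in capitals. CACGTT reads as AACGTG where it lies on the other strand.

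Per1, E-box 166 bases before the start, chr11:69098771-69098800, plus strand: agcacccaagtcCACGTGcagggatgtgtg
Per1, D-box 24 bases before the start, chr11:69098914-69098943, plus strand: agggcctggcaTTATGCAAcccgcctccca
Per3, D-box 205 bases before the start, chr4:151044852-151044881, minus strand: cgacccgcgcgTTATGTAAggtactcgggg
Per3, D-box 158 bases before the start, chr4:151044805-151044834, minus strand: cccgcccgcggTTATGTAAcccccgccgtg
Cry1, E-box 60 bases before the start, chr10:85185097-85185126, minus strand: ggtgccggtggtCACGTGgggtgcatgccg
Cry1, CACGTT 79 bases before the start, chr10:85185116-85185145, minus strand: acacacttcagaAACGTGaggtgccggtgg
Cry2, CACGTT 166 bases before the start, chr2:92434218-92434247, minus strand: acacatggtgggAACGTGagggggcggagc
Nr1d1, CACGTT 28 bases before the start, chr11:98775388-98775417, minus strand: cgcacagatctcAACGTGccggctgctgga
Arntl, RORE core from base 31 after the start, chr7:113207529-113207558, plus strand: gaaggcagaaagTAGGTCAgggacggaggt

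Per3 carried 2 D-boxes, each spelled TTATGTAA, and Per1 carried a D-box and an E-box at 1 of its 2 start sites. Cry1 held an E-box and a CACGTT whose windows overlap, and the only RORE core was at 1 of the 2 start sites of Arntl. Among all 32851 promoters of this length, 7.15% held an E-box, 4.68% CACGTT, 3.38% a D-box, 2.61% a RORE core and 1.79% a CRE. No clock promoter searched held a CRE, and none of these motifs lay in the windows of Clock, Nr1d2 or Dbp. A motif match is a description of the letters and says nothing about binding here.

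Levels of different genes were compared per kb of exon, with exon lengths from GENCODE on GRCm38, the assembly also called mm10. The exons of all transcripts of a gene were merged for its length, while the reads were counted on RefSeq genes. The order below depends on these lengths, which can exceed those of the transcripts present. The receptor gene Nr1d1 was highest per kb in astrocyte ribosomes of naïve mice, at 62.3 ± 11.6 CPM per kb (SD, n = 4), followed by Dbp at 42.4 ± 11.1, Nr1d2 at 28.3 ± 2.60 and Cry2 at 25.7 ± 0.926 CPM per kb. Per1 (11.2 ± 4.33), Arntl (10.2 ± 1.82) and Cry1 (9.43 ± 0.668 CPM per kb) came next, and Clock (5.55 ± 0.441), Per2 (3.91 ± 1.12) and Per3 (2.91 ± 0.261 CPM per kb) were lowest. The 4 libraries of neighbours in this order did not overlap between Dbp and Nr1d2, Cry2 and Per1, or Cry1 and Clock, and they overlapped in the other 6 steps. In naïve INPUT the order opened with Nr1d2 (35.1 ± 5.35), Dbp (27.7 ± 11.9), Nr1d1 (24.7 ± 2.48) and Cry2 (24.6 ± 1.66 CPM per kb), whose neighbours all overlapped, and it closed with Per2 (6.56 ± 1.89), Cry1 (4.60 ± 0.361) and Per3 (4.32 ± 0.527 CPM per kb). Exons of Nr1d1 (chr11:98767932-98775333, minus strand) share 263 of 3077 bases with Thra on the opposite strand, and exons of Dbp (chr7:45705088-45710203, plus strand) share 539 of 2993 bases with Sphk2 on the opposite strand. Whether the counting used strand is not given in the sources used here, so reads from these stretches are uncertain. Mean Thra was 127 CPM on naïve ribosomes and 475 CPM in naïve INPUT, and mean Sphk2 was 26.2 and 34.8 CPM.

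**Figure D1:**
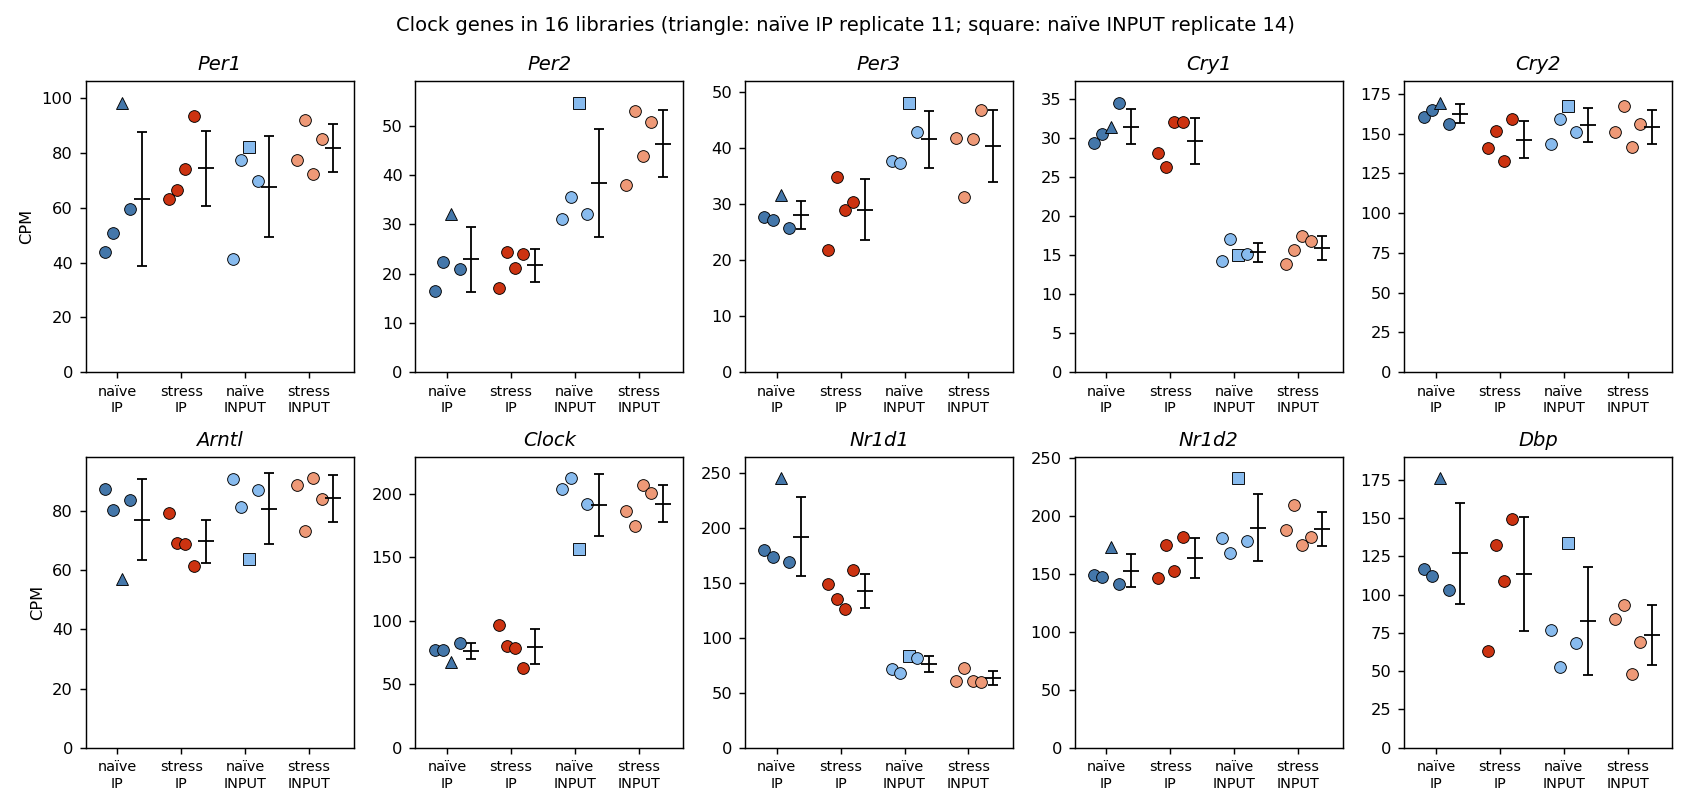
CPM of each clock gene (y axis, from 0) in the 4 groups (x axis), with one point per library and the mean ± SD of 4 libraries beside the points. Nr1d1 and Cry1 lie higher in IP than in INPUT and Clock lower, with no overlap, while the stress and naïve points of one fraction overlap for all genes but Nr1d1 in IP. The triangle (naïve IP replicate 11) and the square (naïve INPUT replicate 14) are the extreme points of their groups for 9 of 10 genes.

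Astrocyte ribosomes were compared with the lysate of all cell types to see where clock transcripts were relatively abundant. IP holds RNA on ribosomes and INPUT the RNA of the lysate. Cell type and the share of a transcript on ribosomes therefore cannot be told apart in these ratios. In naïve mice 3 clock genes were higher in IP (Nr1d1, Cry1 and Dbp), 4 were lower (Clock, Per2, Per3 and Nr1d2) and 3 did not pass the test (Per1, Cry2 and Arntl), at an adjusted p under 0.05 from limma with Benjamini-Hochberg adjustment. Most genes differ between these fractions: 87.7% of 13339 genes passed, 23.7% higher and 64% lower in IP, so a call by itself sets no clock gene apart. In stressed mice the same 3 genes were higher and 5 were lower, Arntl being the fifth, against 86.1% of 13333 genes, 23.6% higher and 62.5% lower. The median log2 fold change of all genes tested was −0.64 in naïve and −0.63 in stressed mice, and that of the 10 clock genes was −0.10 and −0.18.

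Cry1, which encodes a repressor, was higher on astrocyte ribosomes. It was at 29.4, 30.6, 31.4 and 34.6 CPM in naïve IP and at 14.2, 17.1, 15.1 and 15.1 CPM in naïve INPUT, so that the lowest IP library was well above the highest INPUT library. Its log2 fold change was 1.03 (SE 0.08, limma adjusted p 4.7e-08) in naïve and 0.89 (SE 0.10, adjusted p 3.0e-06) in stressed mice. Cry2, its paralog, showed no such ratio in CPM, with 163 ± 5.85 CPM in naïve IP and 155 ± 10.5 CPM in naïve INPUT (SD, n = 4) and a log2 fold change of 0.07 (95% interval −0.06 to 0.19). Under another scaling of the libraries, given below, Cry2 was called higher in IP too.

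The Per genes, which encode the partners of the Cry proteins, went the other way or did not pass. Per2 was at 16.4, 22.3, 32.0 and 20.9 CPM in naïve IP and at 31.2, 35.6, 54.8 and 32.1 CPM in naïve INPUT, where 1 IP library, replicate 11, reached the INPUT range. Its log2 fold change was −0.75 (SE 0.20, limma adjusted p 0.0029) in naïve and −1.10 (SE 0.13, adjusted p 4.6e-06) in stressed mice. Per3 had a log2 fold change of −0.56 (SE 0.09) in naïve and −0.48 (SE 0.15) in stressed mice, and Per1 of −0.12 (95% interval −0.64 to 0.39) and −0.15 (−0.40 to 0.11). Without stress IP replicate 15, Per1 passed as lower in stressed mice (−0.26, adjusted p 0.015).

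The activator pair split. Clock, a subunit of the activator, was at 77.3, 77.3, 67.7 and 82.2 CPM in naïve IP and at 204, 212, 157 and 192 CPM in naïve INPUT. No IP library reached the lowest INPUT library, and the log2 fold change was −1.32 (SE 0.09, limma adjusted p 7.1e-09) in naïve and −1.28 (SE 0.11) in stressed mice. Arntl, its partner, averaged 77.1 ± 13.7 CPM on naïve astrocyte ribosomes and 80.7 ± 12.0 CPM in naïve INPUT (SD, n = 4), with a log2 fold change of −0.07 (95% interval −0.36 to 0.21). In stressed mice the same ratio was −0.27 (SE 0.09, limma adjusted p 0.013).

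The Rev-erb genes also split. Nr1d1 was at 179.6, 173, 245 and 169 CPM in naïve IP and at 71.8, 67.6, 83.1 and 82.0 CPM in naïve INPUT, a log2 fold change of 1.32 (SE 0.11, limma adjusted p 5.8e-08), and it had a log2 fold change of 1.17 (SE 0.09) in stressed mice. Every IP library lay above every INPUT library in both conditions. Nr1d2 averaged 153 ± 14.1 CPM on naïve astrocyte ribosomes and 189.9 ± 29.0 CPM in naïve INPUT, a log2 fold change of −0.31 (SE 0.09, adjusted p 0.0081), and −0.20 (SE 0.08, adjusted p 0.035) in stressed mice. The call of Nr1d2 in stressed mice was lost without stress IP replicate 4 or 6 or stress INPUT replicate 1 or 9 (adjusted p 0.062 to 0.110). It was also lost without the variance trend (adjusted p 0.074), with all 16 libraries in one model (0.055) and with no filter on low values (0.107), the last of which ended the naïve call too (0.065).

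Dbp, the output gene, was at 116, 112, 176 and 103 CPM in naïve IP and at 76.9, 52.5, 134 and 68.1 CPM in naïve INPUT, where INPUT replicate 14 exceeded 3 of the 4 IP libraries. Its log2 fold change was 0.67 (SE 0.23, limma adjusted p 0.016) in naïve and 0.60 (SE 0.25, adjusted p 0.041) in stressed mice. The naïve call was lost without naïve INPUT replicate 7 (0.48, adjusted p 0.058) and the call in stressed mice without stress IP replicate 5, 6 or 15 or stress INPUT replicate 10 or 12, each left out alone (adjusted p 0.075 to 0.135). With no filter on low values both calls were lost (adjusted p 0.127 in naïve and 0.193 in stressed mice), and the call in stressed mice was also lost without the variance trend (0.087) and with all 16 libraries in one model (0.052). Without both naïve libraries that stood apart, the same 3 genes were higher and the same 4 lower in naïve mice, a setting chosen after seeing the data.

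These ratios depend on how libraries are scaled to each other. With libraries set to each other by the median of their gene-wise ratios, which moves the median of all genes to about 0, the calls in naïve mice were 6 higher and 1 lower in place of 3 and 4, and those in stressed mice 7 higher and 2 lower in place of 3 and 5, while the share of higher calls among all called genes went from 27.0% to 49.8% in naïve and from 27.4% to 49.6% in stressed mice. Nr1d1, Cry1 and Dbp stayed higher and Clock lower in both conditions under both scalings, whereas Per1, Per3, Arntl and Nr1d2 turned from below 0 to above 0, and Cry2 did so in stressed mice. Per2 in naïve mice was no longer called under the rescaling (−0.11, adjusted p 0.645). Cry2 in naïve mice, not called before, was called higher under it (0.71, limma adjusted p 4.8e-07). With no filter on low values, 5 genes passed in naïve and 4 in stressed mice, where Per3 (adjusted p 0.061) and Arntl (0.053) were lost beside Nr1d2 and Dbp.

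**Figure D2:**
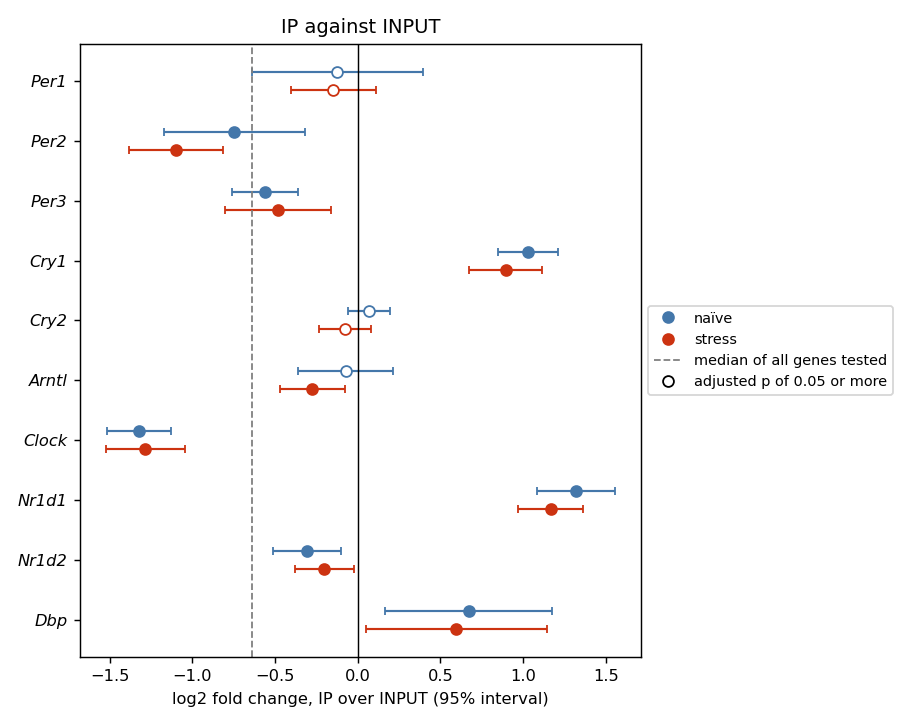
Log2 fold change of IP over INPUT (x axis, with 95% intervals) for each clock gene (y axis) in naïve and stressed mice, 4 libraries against 4, with filled points where the adjusted p was under 0.05. Nr1d1, Cry1 and Dbp lie right of 0, and Clock lies left of the dashed line, the median of all genes tested in naïve mice (−0.64); Per2 also lies left of that line, and the other clock genes lie right of it.

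Naïve and stressed mice were then compared within IP to see whether clock transcripts on astrocyte ribosomes changed after the swim. None of the 10 clock genes passed the test with limma after adjustment (0 higher, 0 lower), and 0.44% of 12501 genes passed. At an unadjusted p under 0.05 there were 2 clock genes, Nr1d1 and Cry2, against 8.27% of all genes tested, and limma-voom on the recovered reads also called 0. The values of naïve and stressed libraries did not overlap for 1 clock gene, Nr1d1, against 5% of all genes tested.

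Nr1d1, which represses Arntl, was at 179.6, 173, 245 and 169 CPM in naïve IP and at 149, 135, 126 and 161 CPM in stress IP. All 4 stressed libraries lay below all 4 naïve ones, with naïve replicate 11 far above the other naïve libraries. The log2 fold change was −0.41 (SE 0.11, 95% interval −0.66 to −0.16), the limma adjusted p was 0.24, and the exact permutation p was 0.029, the smallest that 4 against 4 can give (two-sided). Without naïve IP replicate 11 the log2 fold change was −0.29 (adjusted p 0.20).

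Cry2, a repressor, was at 160.2, 165, 169.5 and 156 CPM in naïve IP and at 141, 152, 133 and 159 CPM in stress IP, where stress replicate 15 lay within the naïve range. Its log2 fold change was −0.16 (SE 0.06, limma adjusted p 0.55, exact permutation p 0.057).

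Per1, a member that glucocorticoids are known to induce, was at 43.9, 50.8, 98.5 and 59.6 CPM in naïve IP and at 63.1, 66.7, 74.3 and 93.7 CPM in stress IP. All stressed libraries were above 3 of the naïve ones and below the fourth, naïve replicate 11. The log2 fold change was 0.29 (SE 0.21, 95% interval −0.17 to 0.75, limma adjusted p 0.77), and without that library 0.53 (SE 0.13, adjusted p 0.15).

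Dbp was at 63.2, 132, 109 and 149 CPM in stress IP, a span wider than that of naïve IP, and its log2 fold change was −0.20 (95% interval −0.72 to 0.32), and −0.031 without naïve IP replicate 11. The other 6 members had log2 fold changes between −0.13 (Arntl) and 0.10 (Nr1d2), and all their intervals included 0. The intervals of Cry1, Nr1d2, Clock, Per3 and Arntl ran from −0.40 to 0.31 in all, and that of Per2 from −0.44 to 0.33. Without naïve IP replicate 11, the log2 fold change of Arntl went from −0.13 to −0.27, that of Per2 from −0.053 to 0.12, that of Per3 from 0.031 to 0.089, that of Clock from 0.050 to −0.0046 and that of Nr1d2 from 0.10 to 0.16. None of these passed either.

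In INPUT, too, 0 of 10 clock genes passed, and 0.0442% of 13577 genes did. At an unadjusted p under 0.05 there was 1 clock gene, again Nr1d1, against 5.03% of all genes, and for none did the groups fail to overlap, against 2.87% of all genes. Nr1d1 was at 71.8, 67.6, 83.1 and 82.0 CPM in naïve INPUT and at 61.1, 72.8, 60.8 and 59.4 CPM in stress INPUT, where 3 stressed libraries lay below all naïve ones and replicate 9 did not. Its log2 fold change was −0.26 (SE 0.08, 95% interval −0.44 to −0.08, limma adjusted p 0.65, exact permutation p 0.086).

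Per1 was at 41.3, 77.5, 82.4 and 69.9 CPM in naïve INPUT and at 77.6, 92.3, 72.3 and 85.3 CPM in stress INPUT, with a log2 fold change of 0.31 (SE 0.17, 95% interval −0.05 to 0.68). Naïve replicate 3 was the lowest of all 16 libraries for this gene, the groups overlapped, and without that library the log2 fold change was 0.093. That library was also the lowest of its group in Fos, Egr1 and Nr4a1. As log2 CPM minus the group mean they were at −1.10, −0.63 and −0.97, and their link to Per1 was not tested. Per2 had a log2 fold change of 0.30 (SE 0.16, 95% interval −0.04 to 0.64), with naïve replicate 14 at 54.8 CPM above all stressed libraries, and of 0.48 (limma adjusted p 0.127) without that library. For Dbp the log2 fold change in INPUT was −0.12, and 0.14 without naïve replicate 14. The other 6 members lay between −0.05 (Per3) and 0.07 (Arntl). Of these, 5 changed sign without naïve replicate 14, to 0.024 for Per3, 0.026 for Cry2, −0.040 for Arntl, −0.079 for Clock and 0.098 for Nr1d2.

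**Figure D3:**
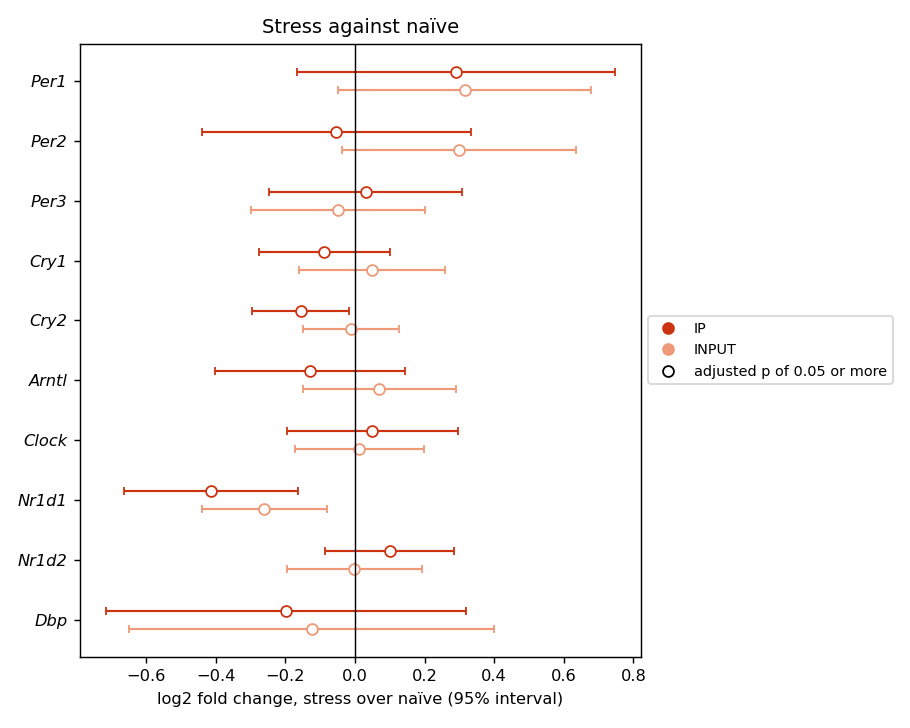
Log2 fold change of stress over naïve (x axis, with 95% intervals) for each clock gene (y axis) in IP and in INPUT, 4 libraries against 4. All points are open, since no adjusted p was under 0.05; the intervals of Nr1d1 in both fractions and of Cry2 in IP do not reach 0.

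Whether stress acted unlike in IP and INPUT was tested as 1 contrast over the 16 libraries. It passed for 0 of 10 clock genes, and for 0.0225% of 13341 genes. At an unadjusted p under 0.05 there were 0 clock genes against 4.71% of all genes, and limma-voom called 0 as well. For Nr1d1 the effect in IP minus that in INPUT was −0.15 (95% interval −0.48 to 0.17), for Per2 −0.35 (−0.91 to 0.21) and for Dbp −0.07 (−0.90 to 0.75), so differences of that size were not detectable with 4 mice a group. Single libraries moved these values. That of Nr1d1 ran from −0.21 without stress IP replicate 15 to −0.030 without naïve IP replicate 11, that of Per2 from −0.54 without naïve INPUT replicate 14 to −0.18 without naïve IP replicate 11, and that of Dbp from −0.33 without naïve INPUT replicate 14 to 0.18 without stress IP replicate 4.

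Several clock genes were extreme in the same libraries. In naïve IP, replicate 11 was the highest of its group for 7 clock genes and the lowest for 2, and in naïve INPUT replicate 14 was likewise the highest for 7 and the lowest for 2. Over all genes tested, naïve IP replicate 11 was the highest of its group for 21% and the lowest for 41.7%, and naïve INPUT replicate 14 for 30.3% and 30.2%, so both libraries stood at an end of their group for many genes. Without naïve IP replicate 11 the genes called for stress in IP went from 55 to 122, and without naïve INPUT replicate 14 those in INPUT from 6 to 32. The extreme clock genes were the same in both: Per1, Per2, Per3, Cry2, Nr1d1, Nr1d2 and Dbp were highest and Arntl and Clock lowest, and Cry1 lay between. Which IP and INPUT libraries shared a mouse is not given, so these libraries could come from the same mouse and are not independent observations. Stress INPUT replicate 9 (highest for 6, lowest for 3) and stress IP replicate 15 (highest for 6, lowest for 2) were similar in part. Both had Dbp, Per1, Nr1d1, Nr1d2 and Cry2 highest and Arntl and Clock lowest too, and they also could share a mouse. Over all genes tested, stress INPUT replicate 9 was the highest for 20.6% and the lowest for 34.3%. For stress IP replicate 15 these shares were 27.7% and 33.2%. Both libraries differed from the naïve ones in Per3. It was the lowest of its group in stress INPUT replicate 9 and lay between in stress IP replicate 15. In stress IP replicate 15, Per2 also lay between (23.9 CPM, with replicate 5 at 24.5 CPM). Cry1 was highest there by a narrow margin (32.105 against 32.085 CPM in replicate 6).

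The ratio of Dbp to Arntl in CPM sums up this contrast. It was 1.33, 1.40, 3.09 and 1.23 in naïve IP and 0.796, 1.91, 1.59 and 2.42 in stress IP. In INPUT it was 0.849, 0.644, 2.10 and 0.781 in naïve and 0.946, 1.27, 0.527 and 0.824 in stressed mice. The 4 libraries named above held the highest ratio of their group. This follows from their having the highest Dbp and the lowest Arntl of it, and adds nothing to those values. Stress IP replicate 4 and stress INPUT replicate 10 held the lowest ratio of their fraction. Marker sums of cell types also differed in these libraries. The sum of 4 oligodendrocyte markers was lowest of its group in naïve IP replicate 11 (65.1 against 107 to 113 CPM), stress IP replicate 15 (68.7 against 91.1 to 151 CPM) and naïve INPUT replicate 14 (748 against 779.8 to 918 CPM), and highest in stress INPUT replicate 9 (811 CPM). The sum of 4 endothelial markers was lowest in naïve INPUT replicate 14 (44.7 CPM, against at least 62.7 CPM in the others), stress INPUT replicate 9 (37.5 against 46.7 to 56.5 CPM) and stress IP replicate 15 (6.59 against 6.71 to 8.53 CPM), and highest in naïve IP replicate 11 (12.4 CPM). The neuronal sum was the highest of its group in stress INPUT replicate 9 (11272 CPM), naïve INPUT replicate 14 (10194 CPM) and stress IP replicate 15 (492 CPM). The sum of 4 microglial markers was highest of its group in stress IP replicate 15 (25.9 against 15.5 to 16.2 CPM). It was also highest in stress INPUT replicate 9 (186 CPM) and lay between in both naïve libraries. The astrocyte sum was lowest in stress IP replicate 15 (77453 CPM) and naïve INPUT replicate 14 (4967 CPM). It was highest in naïve IP replicate 11 (85360 CPM) and lay between in stress INPUT replicate 9. The part of these cell types in the clock pattern was not tested.

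**Figure D4:**
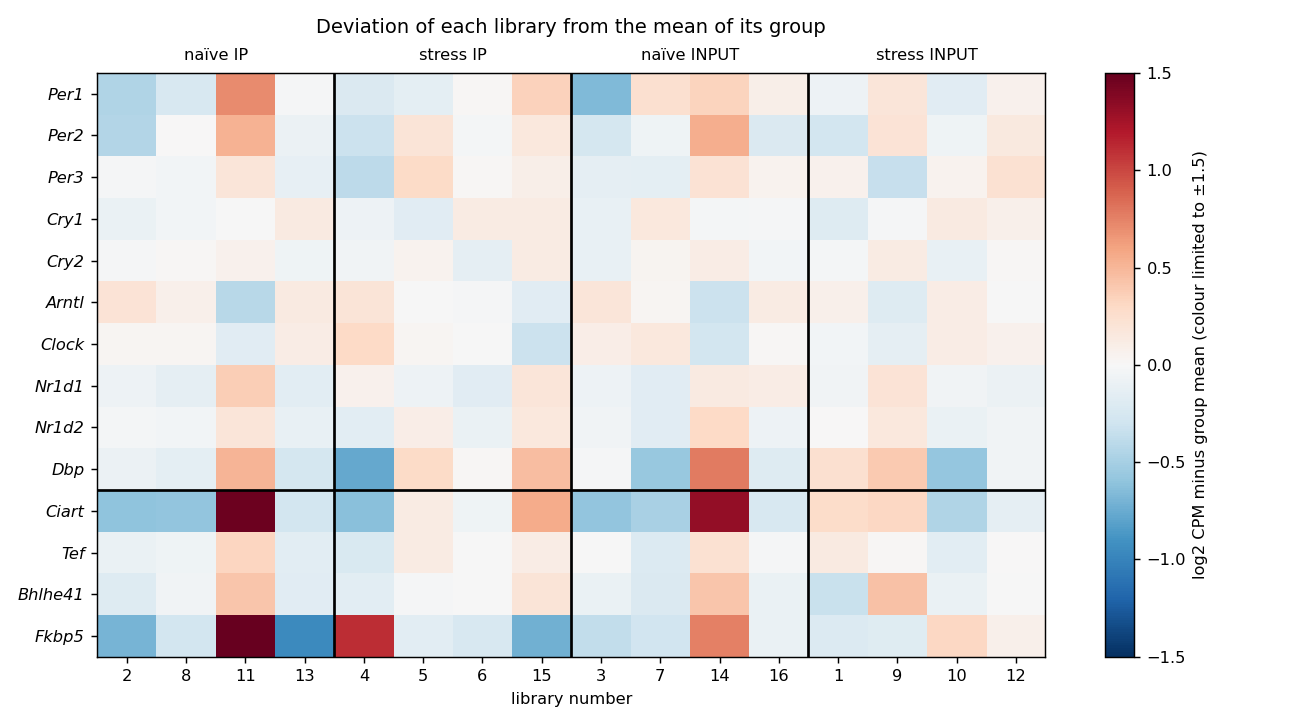
Log2 CPM of each library minus the mean of its group (colour, limited to ±1.5) for the 10 clock genes and, under the line, Ciart, Tef, Bhlhe41 and Fkbp5; columns are the 16 libraries by number. Columns 11 and 14 are red for most genes and blue for Arntl and Clock; Fkbp5 is red in both and in column 4, where Dbp is blue.

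Some other clock transcripts were at an end of their group in the same libraries and others were not. Of 21 listed and tested in IP, 9 were highest and 6 lowest of their group in naïve IP replicate 11, and 9 and 3 in stress IP replicate 15. Of 22 in INPUT, 6 were highest and 6 lowest in naïve INPUT replicate 14, and 7 and 5 in stress INPUT replicate 9. Over all genes tested, 62.6% were at an end in naïve IP replicate 11 and 60.8% in stress IP replicate 15. In naïve INPUT replicate 14 the share was 60.4% and in stress INPUT replicate 9 it was 54.9%. A place at an end by itself therefore sets none of these genes apart. Hlf, which encodes a D-box factor, and Wee1, which encodes a kinase of the cell cycle, were neither in any of the 4. Among those at an end was Ciart, which encodes a repressor of the clock and cycles strongly. Ciart was at 3.82, 3.85, 16.4 and 4.80 CPM in naïve IP and at 8.08, 8.71, 30.7 and 10.4 CPM in naïve INPUT, the high value being that of replicates 11 and 14. In stress IP it was highest in replicate 15 (11.7 CPM) and in stress INPUT in replicate 9 (16.1 CPM). Bhlhe41, a repressor also called Dec2, was highest in the same 4 libraries, at 124, 49.4, 90.2 and 45.4 CPM in naïve IP, naïve INPUT, stress IP and stress INPUT. Tef, which encodes a D-box factor related to Dbp, was highest in the naïve pair (181 and 428 CPM) and not in the other two.

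Transcripts of the hormone response were also high in the 2 naïve libraries. In naïve IP replicate 11, Tsc22d3 was at 442 CPM against 195 to 282 CPM in the other libraries of its group, and Sgk1 at 23.0 against 10.8 to 14.4 CPM. The other genes of the acute stress response taken as a reference were not high there. As log2 CPM minus the group mean, Fos was at 0.03, Egr1 at −0.33 and Nr4a1 at −0.32 in naïve IP replicate 11. In naïve INPUT replicate 14 they were at −0.17, −0.20 and −0.12. Stress IP replicate 15, with high Dbp and low Arntl, had the lowest Fkbp5 of its group (20.1 CPM), and replicate 4, with the lowest Dbp, the highest (71.8 CPM). The hour of killing, the state of the mouse before it was killed and the handling of single samples are not given with the libraries, and their part in these patterns was not tested.

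The width of this spread differed between members. Within groups, the SD of log2 CPM was 0.46 for Dbp in IP, wider than in 95.7% of 12501 genes tested, and 0.50 in INPUT, wider than in 97.8% of 13577 genes. Per1 followed with 0.40 and 0.34 and Per2 with 0.32 and 0.31, while the median over all genes was 0.15 in IP and 0.13 in INPUT. Cry1 (0.12 and 0.13) and Cry2 (0.09 and 0.10) varied less than the median gene. From the lowest to the highest library, Dbp spanned 2.78-fold in IP and 2.79-fold in INPUT, and Cry2 1.28-fold and 1.18-fold.

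For 3 pairs of known relative phase the deviations from the group means were correlated over the 8 libraries of a fraction, 6 relations in all, with exact permutation within groups. Dbp and Per3, which peak at similar hours, had r = 0.92 in IP (exact p 0.019, adjusted 0.057; Spearman rho 0.93, exact p 0.012, adjusted 0.073) and r = 0.13 in INPUT (exact p 0.78, adjusted 0.78; rho 0.12, exact p 0.82, adjusted 0.82). Without the 2 libraries farthest in Dbp these values were 0.79 and −0.20. Dbp and Arntl, which peak at different hours, had r = −0.82 in IP (exact p 0.014, adjusted 0.057; rho −0.83, exact p 0.043, adjusted 0.13) and r = −0.74 in INPUT (exact p 0.097, adjusted 0.16; rho −0.55, exact p 0.20, adjusted 0.40). Without the 2 farthest libraries they were −0.86 and −0.41.

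Nr1d1 and its target Arntl had r = −0.77 in IP (exact p 0.12, adjusted 0.16; rho −0.38, exact p 0.39, adjusted 0.56) and r = −0.62 in INPUT (exact p 0.13, adjusted 0.16; rho −0.33, exact p 0.47, adjusted 0.56). Without the 2 libraries farthest in Nr1d1 they turned to 0.53 and 0.45, so this relation rested on those libraries. None of the 6 relations passed after adjustment. IP and INPUT come from the same mice in an order that is not given, so both fractions are not independent of each other.

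**Figure D5:**
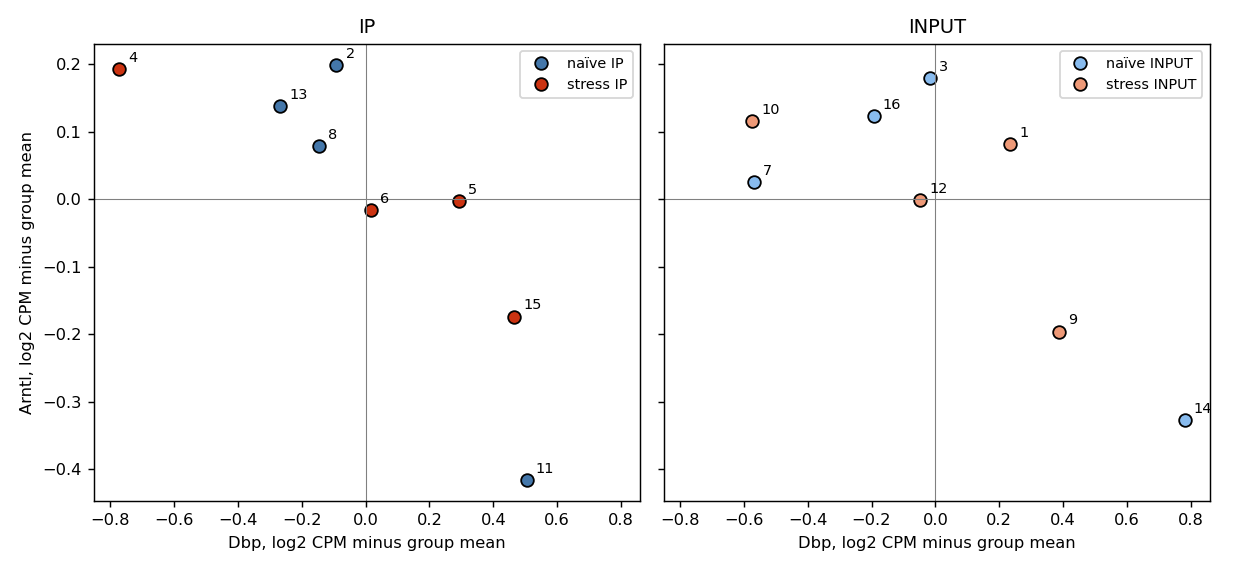
Deviation of Arntl (y axis) against that of Dbp (x axis), each as log2 CPM minus the group mean, for the 8 IP libraries (left) and the 8 INPUT libraries (right), labelled by library number. Replicates 11 and 15 in IP and 9 and 14 in INPUT lie lowest in Arntl and highest in Dbp, with r = −0.82 and −0.74.

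Genes were also ranked by how alike their deviations were to those of Dbp or Arntl over the same 8 libraries, which share depth and cell composition, and these ranks are descriptions. In IP, Nr1d2 (r = 0.92) stood at place 55, Tef (0.92) at 61 and Per3 (0.92) at 66 of 12500 genes in likeness to Dbp. In INPUT, Tef (0.94) stood at place 83 and Nr1d2 (0.94) at 85 of 13576 genes. Some members stood far lower in likeness to Dbp. Nr1d1 (0.46) was at place 2508 and Cry1 (0.12) at 5261 in IP. Per1 (0.26) was at place 4934, Per3 (0.13) at 6038 and Cry1 (−0.61) at 11985 in INPUT. The 5 genes outside the members most alike to Dbp were Slc22a17, Zer1, Kbtbd7, Carhsp1 and Ccar2 in IP (r 0.97 to 0.98) and Ctnnb1, Pgrmc1, Psmb6, Hnrnpk and Rbbp4 in INPUT (r 0.98 to 0.99). The genes most alike to Arntl were Vdac1, Ddx27, Rgl2, Nap1l4 and Elovl7 in IP (r 0.97 to 0.99) and Mfn1, Leo1, Cep135, Dpp8 and Pbdc1 in INPUT (r 0.97 to 0.99).

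At the other end of the ranking by Arntl in IP stood several clock genes. Bhlhe41 had the lowest r of all 12500 genes (−0.99), Ciart stood at place 4 from the end (−0.98), Per1 at 13 (−0.94), Tef at 14 (−0.94) and Per2 at 30 (−0.92). In INPUT, Per2 stood at place 24 from the end (−0.94), Csnk1d at 29 (−0.93), Cry2 at 62 (−0.90), Nr1d2 at 102 (−0.88) and Ciart at 110 (−0.87) of 13576 genes. Not all members stood there. In INPUT, Per3 (−0.05, place 5797 from the end) and Cry1 (−0.04, place 5882) were far from that end. In IP, Cry1 was at place 3618 from the end (−0.23). Clock was opposite to Dbp in both fractions (−0.91 and −0.92).

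Of 22 other clock genes listed, 21 were tested for stress in IP and 22 in INPUT, and 0 passed in either fraction or in the test of the difference. In IP the smallest p-values were those of Ccrn4l, which encodes the deadenylase nocturnin (log2 fold change 0.51, limma adjusted p 0.21), Bhlhe40, also called Dec1 (−0.32, adjusted p 0.29), and Usp2, which encodes a ubiquitin protease (0.47, adjusted p 0.47). In INPUT they were those of Rorb (−0.17), Fbxl21 (−0.47) and Bhlhe40 (0.30), with adjusted p of 0.71 to 0.96. In the test of the difference they were those of Bhlhe40 (−0.62, adjusted p 0.58), Ccrn4l (0.44, adjusted p 0.86) and Usp2 (0.66, adjusted p 0.95). Between IP and INPUT, 6 of the 22 were higher and 12 lower in naïve mice, and 7 higher and 13 lower in stressed mice. Over all genes tested, 23.7% were higher and 64% lower in naïve mice, and 23.6% and 62.5% in stressed mice. A call by itself therefore sets none of these genes apart. Among the highest naïve log2 fold changes were those of Rorb (1.62), whose receptor activates Arntl through RORE sites, and of Bhlhe41 (1.32). The lowest were those of Nfil3, which encodes a D-box repressor (−3.74), Ccrn4l (−2.02) and Wee1, the kinase gene (−1.97).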

How the data were processed

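RNA was sequenced from 16 libraries, 4 per group, and groups were taken from the sample labels. Per the labels and methods, the authors used STAR for alignment to mm10, counted uniquely mapped reads on RefSeq genes with HTSeq, and deposited log2 CPM per gene and library, each library scaled to its own total. The authors' own tests used edgeR and limma per the labels, and their results were not used. From the deposited log2 values, with a floor of −6.40 in all libraries, 100% of values up to 1000 reads came out as whole reads within 0.05, which gave the depth. No 2 libraries were identical. The members and gene lists were chosen with earlier results of these data known.

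Tests were made by limma 3.58.1 under R 4.3.3 (lmFit, eBayes with a variance trend) on log2(CPM + 0.1), a scale that understates changes of low genes, over all genes with a mean above 1 CPM, with Benjamini-Hochberg adjusted p under 0.05. The design foresaw that the unit might differ and its test for CPM was used. Each member was also tested by exact permutation (two-sided, 70 labelings), and relations over 576 arrangements within groups. The fit was tested on simulated data with a common spread for all genes and changes of 1 on the log2 scale. Smaller changes, and libraries that stand apart, were not simulated. Named were all 10 members, the other clock genes past the threshold or, failing that, the 3 of smallest p in each stress test, the 3 highest and 3 lowest IP over INPUT ratios called, and the 5 genes most alike to Dbp and Arntl; 1 gene that this rule names is not reported here. Fkbp5, Tsc22d3, Sgk1, Fos, Egr1, Nr4a1, Ciart, Bhlhe41, Tef, Hlf and Wee1 were named in single libraries after their values were seen. Alternatives tried were a pseudocount of 1 or 0.01, a filter at 5 CPM or none, median-ratio scaling, limma-voom on recovered reads, no variance trend, array weights, all 16 libraries in one model, and each library left out. Motifs and plots used Python 3.11.15, NumPy 2.4.6, SciPy 1.17.1 and matplotlib 3.10.9. Reads after PCR are not independent molecules.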

Additional observations from a re-analysis of the deposited data

Results flagged for a closer look

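Of 40 groups of 4 libraries (10 clock genes in 4 groups), 2 held a library whose gap to its nearest neighbour took a larger share of the whole range of the group than Dixon's 95% limit for 4 values. Chance gives such a gap in about 1 in 20 groups. Both were in Nr1d1. In naïve IP, replicate 11 was at 245 CPM against 169 to 179.6 CPM in the other 3 libraries. In stress INPUT, replicate 9 was at 72.8 CPM against 59.4 to 61.1 CPM. Both libraries were also the highest of their group for Dbp and Per1 and the lowest for Arntl and Clock.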

How the results depend on the processing

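The count of clock genes past the threshold stayed at 0 in both stress comparisons and in the test of their difference under every alternative run, each library left out included (0 to 0). In IP against INPUT it was 6 to 7 in naïve mice when single libraries were left out, with 6 without naïve INPUT replicate 7, and 6 to 8 in stressed mice, with 6 without stress IP replicate 6. With no filter on low values it was 4 in stressed mice in place of 8, and it was 6 without the variance trend and 6 with all 16 libraries in one model. No paired analysis was possible because the groups share no replicate numbers and the pairing of mice is not given.

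Rescaling by the median ratio turned the sign of 9 log2 fold changes of IP over INPUT, as the shift of the median of all genes implies. In naïve mice these were Per1 (0.52), Per3 (0.078), Arntl (0.57) and Nr1d2 (0.34), and in stressed mice Per1 (0.48), Per3 (0.14), Cry2 (0.55), Arntl (0.35) and Nr1d2 (0.42). Array weights turned values near 0 for Per3 (0.020), Cry2 (0.00071) and Nr1d2 (0.0095) under stress in INPUT and for Per1 in the difference of the stress effects (0.018), which was 0.10 without both naïve libraries that stood apart. In the same rescaling the relations in IP of Dbp with Per3 (r = 0.94) and with Arntl (r = −0.90) passed, each with an adjusted p of 0.047.

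Leaving out single libraries turned these uncalled values at least once. Under stress in IP the ranges were −0.20 to 0.12 for Per2, −0.065 to 0.16 for Per3, −0.050 to 0.16 for Clock and −0.35 to 0.058 for Dbp. Under stress in INPUT they were −0.12 to 0.068 for Per3, −0.052 to 0.027 for Cry2, −0.040 to 0.14 for Arntl, −0.079 to 0.066 for Clock, −0.058 to 0.098 for Nr1d2 and −0.31 to 0.14 for Dbp. In IP over INPUT of naïve mice they were −0.36 to 0.029 for Per1 and −0.18 to 0.065 for Arntl. In the difference of the stress effects they were −0.18 to 0.21 for Per1, −0.038 to 0.21 for Per3, −0.062 to 0.15 for Clock and −0.33 to 0.18 for Dbp. For the relation of Dbp with Per3 the ranges of r were 0.77 to 0.98 in IP, which passed in 2 of 8 cases, and −0.39 to 0.70 in INPUT. The cause of these changes was not tested. With 4 mice a group, and Dbp and Per1 among the most variable genes, changes of either after stress had intervals over 0.7 wide on the log2 scale.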
